A study of Mus musculus with 6 samples.

Results

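The genes Rufy4, Grk3, Nyap2, Serpinb6b, Npl, Slc37a2 and Plekhn1 were examined in RAW264.7, a line of mouse macrophages from which the cytokine RANKL induces bone-resorbing osteoclasts. All 7 genes were found by symbol among the 11031 rows of the deposited expression table. They had been selected on the size of the difference between untreated and RANKL-stimulated cells that the authors computed in this table, and that comparison is neither printed nor used here. RNA sequencing covered 6 samples, 3 untreated controls (Ctrl) and 3 RANKL-stimulated samples (RANKL), both collected at day 3. The labels call the samples of a group separate biosamples of this 1 cell line.

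The levels below are the authors' mean over libraries, 1 value a gene, with no replicate spread. The values of single libraries were not analysed here, because their columns carry letters that match no sample label. Depth, levels in each condition and the difference between Ctrl and RANKL were therefore not analysed here, and the label of these genes as strongly shifted was not tested. The mean may combine libraries of both conditions, so neither a low nor a high mean, nor any rank below, can be told apart from a level that comes mostly from one condition. By its header the column is a mean of FPKM, fragment counts scaled to transcript length and sequencing depth. The header names neither a log scale nor a base. The column was read as log2(FPKM + 1), an inference from the values. Whether it is the log of a mean or a mean of logs was not tested, so no level is converted back to FPKM. With median transcript lengths, base 2 gave 0.53 times the total that the unit allows (0.29 with the shortest and 1.10 with the longest transcripts), whereas a natural logarithm gave 7.17 times that total.

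The 7 genes belong to unrelated families. Rufy4 encodes a RUN and FYVE domain adaptor of autophagosomes and lysosomes, and Slc37a2 a sugar phosphate exchanger known in osteoclasts from the membrane of secretory lysosomes. Npl encodes N-acetylneuraminate lyase, which splits free sialic acid, and Serpinb6b an intracellular inhibitor of serine proteases. Grk3 encodes a kinase that phosphorylates activated G protein-coupled receptors, Nyap2 an adaptor of phosphoinositide 3-kinase described in neurons, and Plekhn1 a protein with a lipid-binding pleckstrin homology domain.

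The promoters were searched for short motifs of factors known in the macrophage and osteoclast lineage, and those of 3 genes, picked after the matches were seen, are shown because Rufy4 and Slc37a2 hold an infrequent motif and Serpinb6b holds the PU.1 core at 2 positions. Each window searched runs from 250 bases before to 50 after a RefSeq start site (GRCm38.p6). The bases shown are those before this site and before any annotated exon of the gene, 5′ to 3′ on its strand. Capitals mark the AP-1 motif TGANTCA in Rufy4 (chr1:74125291-74125540, plus strand) and in Slc37a2 (chr9:37255739-37255988, minus strand). They mark the PU.1 core GAGGAA in Serpinb6b (chr13:32965011-32965208, plus strand).
Rufy4: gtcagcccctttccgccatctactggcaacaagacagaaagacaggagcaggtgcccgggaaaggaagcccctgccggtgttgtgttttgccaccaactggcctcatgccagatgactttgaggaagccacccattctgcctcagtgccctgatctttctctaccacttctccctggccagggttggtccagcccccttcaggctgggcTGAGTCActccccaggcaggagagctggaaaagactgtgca
Slc37a2: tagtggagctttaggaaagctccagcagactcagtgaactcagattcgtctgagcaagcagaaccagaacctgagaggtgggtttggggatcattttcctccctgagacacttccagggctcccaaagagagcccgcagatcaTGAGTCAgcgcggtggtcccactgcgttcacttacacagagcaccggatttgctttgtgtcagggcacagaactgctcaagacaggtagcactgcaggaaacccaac
Serpinb6b: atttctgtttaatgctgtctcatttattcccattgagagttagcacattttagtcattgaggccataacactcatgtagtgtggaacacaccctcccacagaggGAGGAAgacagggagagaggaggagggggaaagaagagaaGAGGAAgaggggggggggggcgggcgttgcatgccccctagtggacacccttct

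The mean levels of the 7 genes ran from the 7.33 to the 92.4 percentile of the rows. On the log2(FPKM + 1) scale, used for all levels here, 4 genes lay above the table median of 3.60 and 3 below the lower quartile of 2.38, with none between these limits. The level of Slc37a2 was 6.33, at the 92.4 percentile of all rows. Serpinb6b followed at a level of 5.19 (81.4 percentile). Both lay above the upper quartile of 4.79. Plekhn1 had a level of 4.30 (65.5 percentile) and Npl a level of 3.84 (55.2 percentile). These 4 genes thus had mean levels in the upper part of the listed rows.

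The other 3 genes had low means. The level of Rufy4 was 1.83 (16.8 percentile). Grk3 had a level of 1.05 (8.39 percentile) and Nyap2 a level of 0.95 (7.33 percentile). Neighbours in this order were 0.10 (Grk3 and Nyap2) to 2.01 (Npl and Rufy4) apart on the log2 scale. Whether neighbours differ beyond their replicate spread was not tested, since the mean has no spread.

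**Figure D1:**
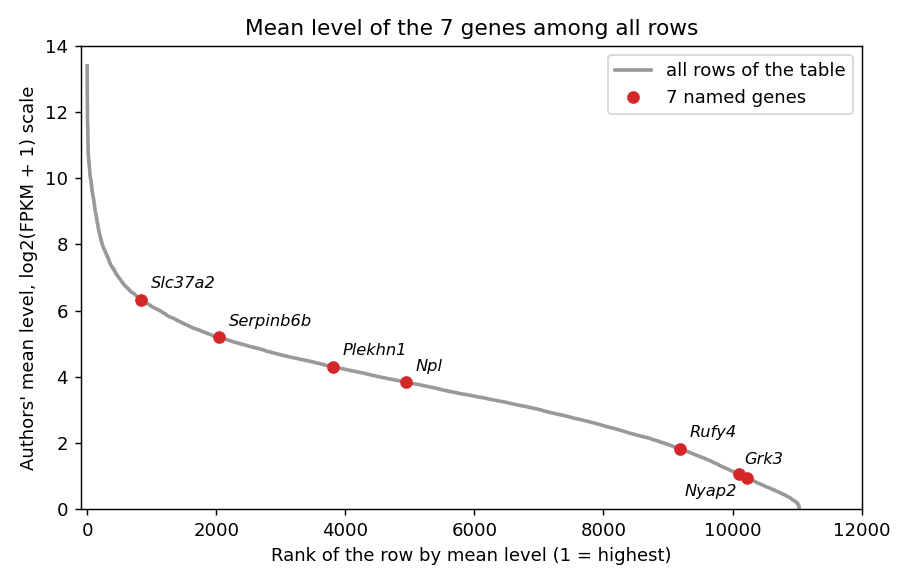
Authors' mean level on the log2(FPKM + 1) scale against the rank of each row, for all 11031 rows (line) and the 7 genes (points). Slc37a2, Serpinb6b, Plekhn1 and Npl lie between 3.84 and 6.33, and Rufy4, Grk3 and Nyap2 between 0.95 and 1.83.

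The cell type was checked by markers over the same mean. Of 10 macrophage markers 9 had a row, with a median level of 8.65 and the lysozyme gene Lyz2 highest at 12.37. All 10 osteoclast markers had a row, with levels from 0.45 (Calcr, 2.18 percentile) to 6.74 (Ctsk, 94.6 percentile). All 7 genes lay within this range, but so do most rows of the table, so this does not set them apart. Of 6 dendritic cell markers, Itgax, Cd83 and Zbtb46 had rows, at levels of 4.05, 4.61 and 1.06. None of the 5 neuronal markers matched a row, and they were not analysed here.

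Slc37a2 had the highest level of the SLC37 family of sugar phosphate transporters. The glucose-6-phosphate transporter Slc37a4 had a level of 4.12, Slc37a3 of 2.89 and Slc37a1 of 2.49, so that Slc37a2 was above them by 2.21, 3.44 and 3.84 on the log2 scale. The table gives Slc37a2 and Slc37a1 the same KEGG orthology term. Among genes that make or use glucose-6-phosphate, the isomerase gene Gpi1 was higher at 8.53. The hexokinase genes Hk3 (5.76), Hk1 (5.44) and Hk2 (4.42) and the phosphatase gene G6pc3 (4.63) had lower levels than Slc37a2. Among 34 rows with the Major Facilitator Superfamily domain, whose median level was 2.78, Slc37a2 ranked second, after Mfsd1 at 6.48.

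Serpinb6b ranked second of 11 clade B serpins with a row, serpins that mostly act inside cells. Its paralog Serpinb6a was higher at 7.12, a difference of -1.93 (Serpinb6b minus Serpinb6a) on the log2 scale. Serpinb8 (4.58) and Serpinb1c (3.64) followed, and the 3 lowest were Serpinb11 (1.10), Serpinb1a (1.09) and Serpinb12 (0.96). The other 3 genes in the orthology term of Serpinb6b and Serpinb6a were Serpinb9 (2.56), Serpinb10 (1.48) and Serpinb9b (1.15). Another 16 annotated clade B serpin genes, Serpinb6c, Serpinb6d and Serpinb6e among them, were not analysed here. Of all 50-base words in Serpinb6b transcripts, 2.92% occur in transcripts of other genes, most of them in Serpinb6c, so reads shared with paralogs touch a small part of the gene.

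Npl took place 9 of 14 genes of sialic acid and amino sugar metabolism, below their median level of 4.90. Enzymes that make and activate sialic acid stood both above and below it. The activating enzyme Cmas had a level of 6.21 and the synthase Nans of 5.44, with differences (Npl minus each) of -2.37 and -1.60, whereas the epimerase Gne (3.24) and the phosphatase Nanp (1.98) lay below it. Genes that handle N-acetylmannosamine and amino sugars after the lyase step were mostly higher. Renbp was at 5.91, Gnpda1 at 5.57, Amdhd2 at 5.31 and Nagk at 5.22, whereas Gnpda2 (3.81) was 0.03 from Npl.

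The lysosomal sialidase gene Neu1 had a level of 4.99 and the sialic acid exporter of lysosomes Slc17a5 of 4.80, both above Npl. The Golgi transporter Slc35a1 (3.56) and the sialidase Neu3 (0.56) were lower. Neu2 and Neu4 were not analysed here. In the KEGG pathway of amino sugar and nucleotide sugar metabolism, as annotated in the table, Npl ranked 31 of 44 rows, with a median level of 4.60. Among 2 rows with its lyase domain, Npl was the higher.

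Rufy4 had the lowest level of its family. The early endosomal adaptor Rufy1 was at 4.39, Rufy3 at 3.14 and Rufy2 at 2.41, with differences (Rufy4 minus each) of -2.56, -1.31 and -0.59 on the log2 scale. Among 10 rows with a RUN domain, whose median was 2.89, Rufy4 ranked 9.

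Grk3 likewise had the lowest level of the receptor kinases and arrestins with a row. Its closest relative Grk2, with which it shares an orthology term, was at 6.04, a difference of -4.99 (Grk3 minus Grk2) on the log2 scale. Grk6 had a level of 4.85 and Grk5 of 1.92, and the arrestin genes Arrb2 and Arrb1, whose products bind phosphorylated receptors, were at 5.73 and 4.63. Grk1 and Grk4 were not analysed here. Of 231 rows with a protein kinase domain, Grk3 ranked 218. The table places Grk3 in 6 KEGG pathways, among them chemokine signalling and endocytosis.

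Nyap2 was the single row with its adaptor domain, and its relatives Nyap1 and Myo16 were not analysed here. It has no KEGG pathway in the table. Plekhn1 took place 9 of 23 genes with names that begin with Plekh, whose products share pleckstrin homology domains and little else. Plekho1 (7.65), Plekho2 (6.97) and Plekhb2 (5.60) had the highest levels of these and Plekhh2 (0.55), Plekhg6 (0.27) and Plekha4 (0.24) the lowest. Among 27 rows with the same domain entry, Plekhn1 ranked 15, near their median of 4.51.

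**Figure D2:**
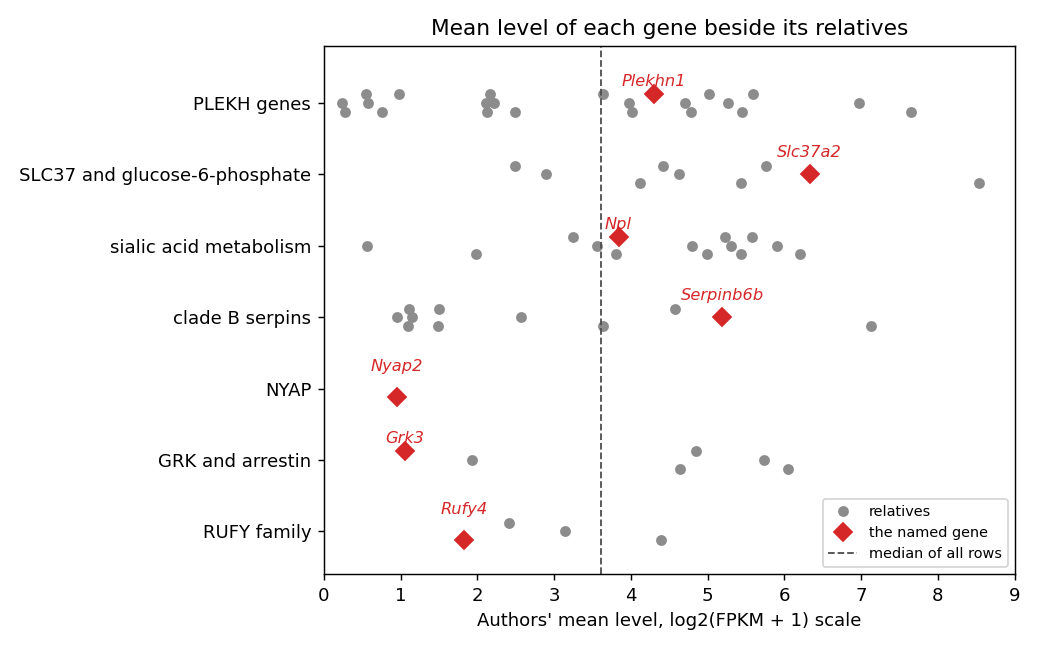
Authors' mean level on the log2(FPKM + 1) scale for each gene (diamond) and its listed relatives (circles), with the median of all rows (dashed line, 3.60). Vertical offsets within a list only separate the points. Slc37a2 and Serpinb6b are second in their lists, and Rufy4 and Grk3 are lowest in theirs.

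All 7 genes are annotated as protein-coding in GENCODE M21 (GRCm38), and they differ widely in size. Grk3 (ENSMUSG00000042249) spans 105 kb on chromosome 5 (112910482 to 113015791, minus strand), and its longest coding transcript has 21 exons and encodes 688 residues. Nyap2 (ENSMUSG00000054976) spans 265 kb on chromosome 1 (81076950 to 81341764, plus strand), with 5 exons for 737 residues. Rufy4 (ENSMUSG00000061815, chromosome 1, plus strand) extends from 74125541 to 74148223, with 12 exons for 563 residues. The 3 genes with low means thus include the largest and the smallest number of exons among the 7.

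Npl (ENSMUSG00000042684, chromosome 1, minus strand) extends from 153503015 to 153550045 and has 12 exons for 320 residues. Slc37a2 (ENSMUSG00000032122, chromosome 9, minus strand) extends from 37227585 to 37255738 and has 19 exons for 506 residues. Serpinb6b (ENSMUSG00000042842, chromosome 13, plus strand) extends from 32965209 to 32979067 and has 7 exons for 377 residues. Its flanking protein-coding genes are serpins too, Serpinb1c at 67.0 kb and Serpinb9 at 24.2 kb. Plekhn1 (ENSMUSG00000078485, chromosome 4, minus strand) extends from 156221456 to 156229717, with 16 exons for 611 residues. These limits leave out 1 GENCODE transcript (156229044 to 156234857) that RefSeq assigns to the neighbouring gene Klhl17, which has a row of its own at a level of 2.96.

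**Figure D3:**
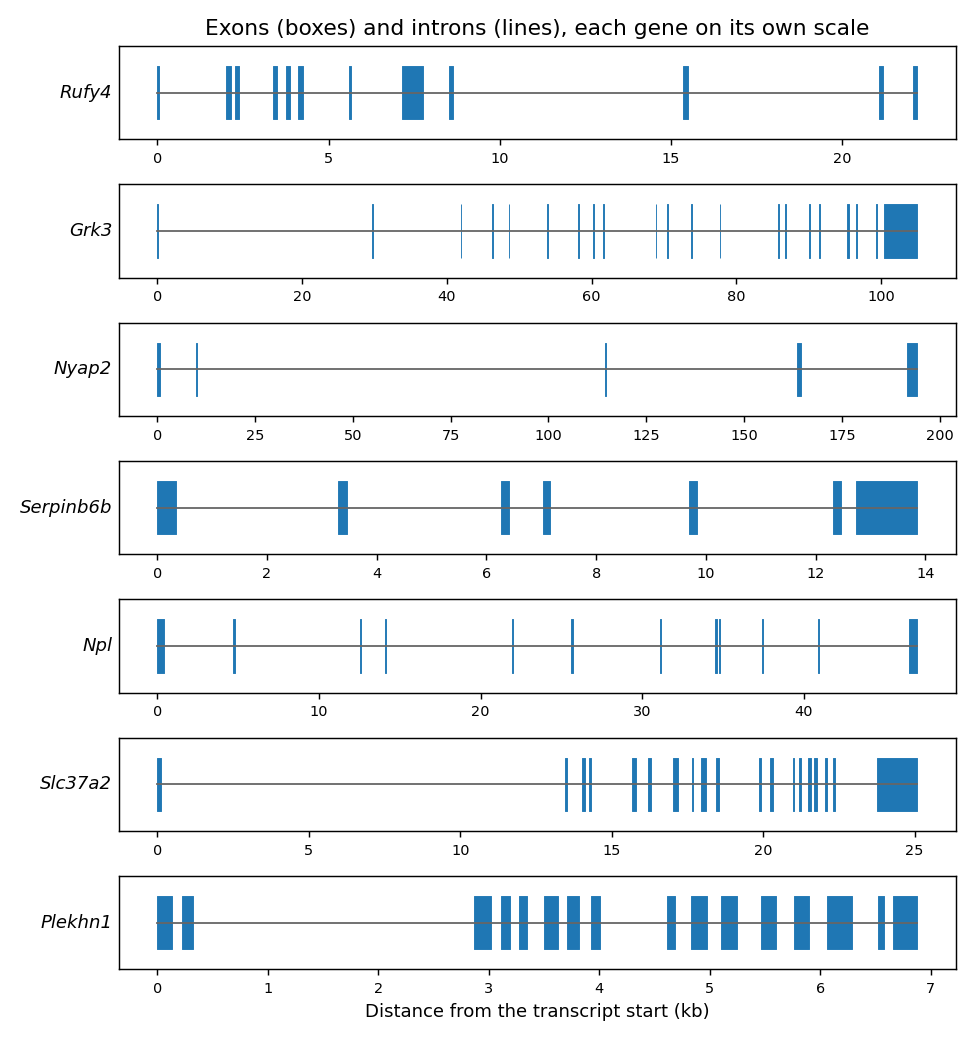
Exons (boxes) and introns (lines) of the longest coding transcript of each gene in GENCODE M21, by distance from the transcript start in kb, each gene on its own scale. The number of exons ranges from 5 in Nyap2 to 21 in Grk3.

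The mean level is 1 value for all isoforms of a gene, and 2 of the genes overlap other annotated genes. Slc37a2 overlaps the antisense gene Gm48081, with which 2.87% of its 50-base words are shared on the opposite strand, and the pseudogene Gm10177. The libraries were strand-specific per the labels, but no source used here says whether reads were counted by strand. Plekhn1 overlaps Klhl17 by 674 bases on the same strand, through 1 isoform with a longer first exon, and shares 10.2% of its words with it. Reads from that stretch cannot be assigned by sequence to one of these genes. In Rufy4 and Nyap2 no word was shared with another gene, in Grk3 0.0458% were, and in Npl 1.92%. Of the nearest protein-coding genes that do not overlap a member and have a row, some had levels near that of the member and others did not. Rufy4 (1.83) lies 1.09 kb from Tns1 (1.55). Plekhn1 (4.30) lies 0.149 kb from Perm1 (1.77) and 6.29 kb from Noc2l (5.93). Npl (3.84) lies 15.4 kb from the helicase gene Dhx9 (5.83) and 103 kb from Rgs8 (0.85). Slc37a2 (6.33) lies between Tmem218 (2.28) and Ccdc15 (0.66), and Serpinb6b (5.19) between Serpinb1c (3.64) and Serpinb9 (2.56). Nyap2 (0.95) lies 318 kb from Dock10 (4.48), and Grk3 (1.05) 14.1 kb from Myo18b (0.13).

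RefSeq start windows were matched by symbol for 6 of the 7 genes, and Grk3 was not matched. The windows number 7 because Plekhn1 has 2 start sites. These sites lie 30 bases apart, so the 2 windows of Plekhn1 cover mostly the same bases and are not separate sequences. The AP-1 motif TGANTCA, bound by Fos and Jun dimers, was found in Rufy4 at -41 and in Slc37a2 at -107 from the RefSeq start site. These are 2 of 6 genes, or 2 of 7 windows, against 7.81% of all 32851 windows. Both matches are the capitals in the sequences printed above. In GENCODE both genes have a transcript that starts at the RefSeq site, but their longest coding transcripts start 38 (Rufy4) and 324 (Slc37a2) bases further downstream. From those downstream starts the matches lie at -79 and -431. The E-box CACGTG, which factors of the MITF family bind, was found in Npl alone of the 6, at -51 from the RefSeq start site. This is 1 of 7 windows, against 7.15% of all windows. The coding transcript of Npl in GENCODE starts 331 bases further upstream, so its first exon holds all 300 bases of this window. The match lies 280 bases past that start, in transcribed and non-coding sequence. Another GENCODE transcript of Npl starts 3 bases from the RefSeq site. The related E-box CATGTG and the RUNX core TGTGGT had no match in these windows, against 14.2% and 16.8% of all windows.

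The PU.1 core GAGGAA was found in 4 of 6 genes, Rufy4, Slc37a2, Serpinb6b and Plekhn1 (5 of 7 windows), against 28.3% of all windows. Serpinb6b held it at 2 positions, -146 and -106, both also before the GENCODE start, which lies 52 bases upstream of the RefSeq one. In Plekhn1 the 250 bases before either start lie in the first exon of the isoform that overlaps Klhl17. The NFAT core GGAAA, which is short and common, was found in 5 of 6 genes (6 of 7 windows), Npl being the exception, against 61.3% of all windows. In Slc37a2 a match of this core overlaps that of the PU.1 core. A kappa B pattern, GGG and CC with 5 bases between, matched in Rufy4, Npl and Plekhn1 (4 of 7 windows) against 50.8% of all windows. Both strands were searched throughout. The AP-1 motif and CACGTG read alike on both strands. A match is a description of letters in the window and not evidence that a factor binds there.

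Base composition differed between the windows. The Npl window, which lies within an exon as given above, had 61.0% G and C and the highest ratio of observed to expected CpG, 0.75 (75.3 percentile of all windows). Nyap2 had 41.7% G and C (14.1 percentile), and Serpinb6b 48.3%. Rufy4 had 57.7% and Slc37a2 52.7%, with CpG ratios of 0.12 and 0.34. Plekhn1, at its 2 start sites, had 61.3% and 62.3% with ratios of 0.21 in both. Npl was thus the single gene of the 6 above the 50 percentile of windows in CpG ratio.

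**Figure D4:**
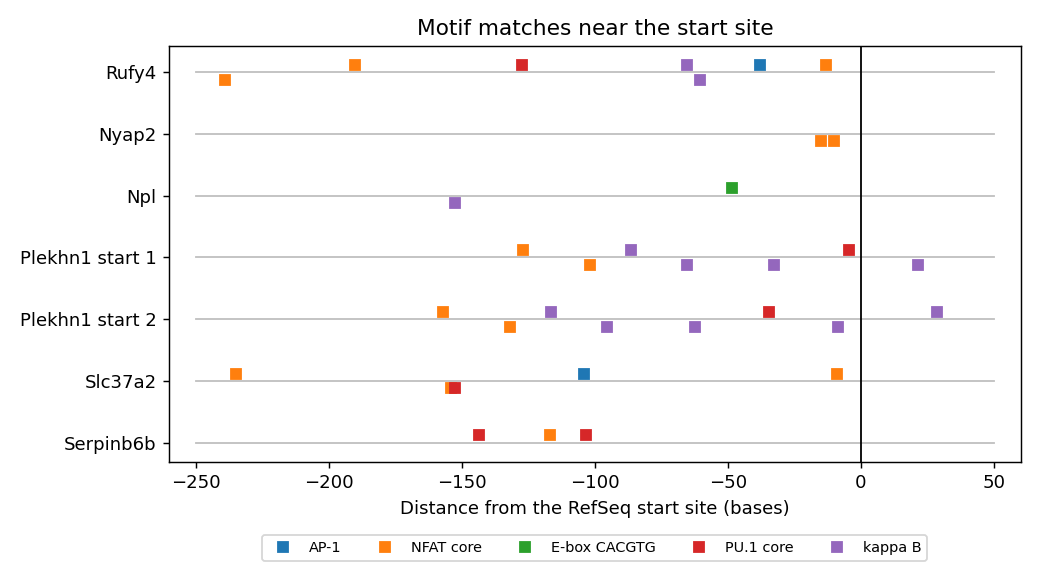
Positions of motif matches (squares, centred) from 250 bases before to 50 after each RefSeq start site (vertical line), above the line on the strand of the gene and below it on the opposite strand. AP-1 matches occur in Rufy4 and Slc37a2, and the E-box CACGTG in Npl, whose whole window lies in an exon of the GENCODE coding transcript; both motifs read alike on either strand and are drawn above.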

How the data were processed

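The series holds RNA sequencing of 6 RAW264.7 samples. Per the labels, libraries were poly(A)-selected, strand-specific and read in pairs. The submitters' processing notes name DESeq and mm10, and the methods name DESeq2 for the authors' test. Not given in the sources used here are the aligner, counter, annotation release and row filter. The deposited log2 mean expression is the authors' mean of FPKM over libraries, read as log2(FPKM + 1), since no value is negative (lowest 0.02) and base e gave a total above what the unit allows. The table also holds 12 columns of single libraries, whose letters match no sample label, and 4 columns of the authors' own comparison (fold change, p-value, adjusted p-value and direction). None of these was used, so no test between groups was made. Depth per sample was not analysed here.

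Of 10947 Ensembl identifiers, 10915 matched GENCODE M21. Percentiles were computed over all rows. Transcripts that RefSeq assigns to another gene were left out of the gene models. Words of 50 bases were compared on both strands between all GENCODE transcripts. Promoter windows of 300 bases came from RefSeq. The motif search found every motif copy planted in simulated sequences of A and T, which checks recall only and not extra matches. Python 3.11.15, pandas 2.3.3 and matplotlib 3.10.9 were used. Members and lists were chosen with earlier results of these data known. The named genes are the 7 members, every listed relative with a row, and the 3 highest and 3 lowest members of the serpin and Plekh lists. The rule had ranked the last by fold change and mean level replaced it after the files were seen. The rule's genes of most similar pattern over samples were left out for the same reason.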

Additional observations from a re-analysis of the deposited data

How the results depend on the processing

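The percentiles were recomputed over the 10885 protein-coding rows and over the 10947 rows with an Ensembl identifier, 2 alternatives chosen after seeing the data. They stayed within the 95% Wilson interval of each gene's percentile over all 11031 rows. Both alternatives leave out few rows and could move a percentile only a little, so this is a weak check. That interval covers counting over rows only. Among rows at or above the median alone, likewise chosen later, the percentiles of Slc37a2, Serpinb6b, Plekhn1 and Npl were 84.8, 62.8, 30.9 and 10.4, lower by construction since the lower rows are left out, and the other 3 genes have no value. With the 250 bases before the start site alone, also chosen after seeing the data, the number of genes with a match was equal for all 7 motifs. No paired analysis was possible because the columns of single libraries, named by 2 letters with numbers 1 to 3, match no sample label and were therefore left unused. For the same reason the planned fits that leave out a replicate, change the normalization, the filter or the pseudocount, or order rows by their difference were not run.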
